A study of Mus musculus with 4 samples.

Results

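The genes of the TYROBP and Fc receptor pathway described here are *Tyrobp*, *Fcer1g*, *Fcgr1*, *Fcgr2b*, *Fcgr3*, *Fcgr4*, *Trem2* and *Syk*, 8 of the 45802 gene symbols in the deposited table. They were taken from the table by symbol, and the group was chosen by its log2 differences between the populations in these same libraries, so that those differences are given as a description without a test. Periosteal cells came from the femurs and tibias of male Pdgfrα-mTmG mice 9 to 10 weeks old, which carry CreER under the *Pdgfra* promoter and the mT/mG reporter, 14 days after 5 daily doses of tamoxifen at 150 mg/kg. Both populations share these alleles, the tamoxifen and 1 passage of culture with 10 ng/mL bFGF, and each pooled the cells of 3 to 6 mice per the labels, while the methods give another range. PDGFRα reporter+ cells were sorted by membrane GFP and PDGFRα reporter- cells by membrane tdTomato, both after removal of cells stained for CD31, CD45 and Ter119. The color marks cells in which the promoter was active at the time of tamoxifen, and their descendants, not the receptor on the cell at sorting. Total RNA of 2 libraries per population was sequenced, and the authors deposited 1 quantile-normalized log2 value per gene and library, blank where no signal was found. The columns of the table number the libraries of each population 2 and 3, and libraries are named by population and that number. Depth is unknown and the unit under the logarithm is not stated. Levels are therefore compared between libraries for the same gene and not between genes, except in linear sums over marker lists. Such a sum can be set by a single gene.

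TYROBP (DAP12) and the Fc receptor γ chain, encoded by *Fcer1g*, are small transmembrane adaptors without a ligand-binding domain of their own. Each lends a cytoplasmic immunoreceptor tyrosine-based activation motif (ITAM) to partner receptors, and Src family kinases phosphorylate the pair of tyrosines in it, which then dock the kinase SYK. Fcγ receptors bind the constant part of IgG, and in mice FcγRI, FcγRIII and FcγRIV signal through the γ chain, whereas FcγRIIB carries an inhibitory motif in its own tail. The pathway is best known from macrophages, neutrophils, mast cells and NK cells, and in bone from osteoclasts, whose formation depends on both adaptors.

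The coding stretches of the motifs are shown because they set the activating chains apart from the inhibitory receptor of the same family. Both adaptors matched the activation pattern (tyrosine, any pair of residues, leucine or isoleucine, a gap of 6 to 12 residues, and the same again) once, over codons 92 to 106 of *Tyrobp* and 65 to 79 of *Fcer1g*. The other 6 genes did not match it. The 45 bases of each adaptor are split over exons in GENCODE M21 on GRCm38, on the plus strand of chromosome 7 between 30415670 and 30417382 for *Tyrobp* and on the minus strand of chromosome 1 between 171229889 and 171230072 for *Fcer1g*. The inhibitory stretch of *Fcgr2b* covers codons 317 to 322, at chr1:170961071-170961088 on the minus strand. Its pattern (isoleucine, valine, leucine or serine, any residue, tyrosine, any pair, isoleucine, valine or leucine) is loose and was also met once in *Tyrobp*, *Fcer1g* and *Fcgr4* and 3 times in *Fcgr1*. Capitals mark the tyrosine codons.
Tyrobp: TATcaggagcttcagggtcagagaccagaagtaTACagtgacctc
Fcer1g: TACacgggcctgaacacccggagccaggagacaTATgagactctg
Fcgr2b: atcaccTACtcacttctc

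Both adaptors were listed in all libraries and were higher in PDGFRα reporter+ cells within each library number. *Tyrobp* (chromosome 7, 30413760 to 30417585) had log2 values of 3.05 and 3.45 in reporter+ libraries 2 and 3 and of 1.88 and 2.61 in reporter- libraries 2 and 3. The populations did not overlap, and the lower reporter+ library lay 0.44 above the higher reporter- library. The log2 difference was 1.00 (SE 0.32 from limma), which is 2.00-fold, with 1.17 within number 2 and 0.84 within number 3, and it was 0.64 without reporter- library 2. *Fcer1g* (chromosome 1, 171229572 to 171234365) had log2 values of 1.84 and 2.15 in the reporter+ and of 0.78 and 1.88 in the reporter- libraries. Here reporter- library 3 lay just above reporter+ library 2, so that the populations overlapped, and reporter- library 2 was the lowest of all. The log2 difference of 0.67 (SE 0.42) was made up of 1.06 within number 2 and 0.28 within number 3. It was 0.12 without reporter- library 2 and 1.22 without reporter- library 3. The neighbor of *Tyrobp*, *Hcst*, encodes DAP10, an adaptor without an ITAM, and lies 126 bases beyond it on the opposite strand. *Hcst* had a value in 1 library of each population, −4.25 in reporter+ library 3 and −4.18 in reporter- library 2.

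**Figure D1:**
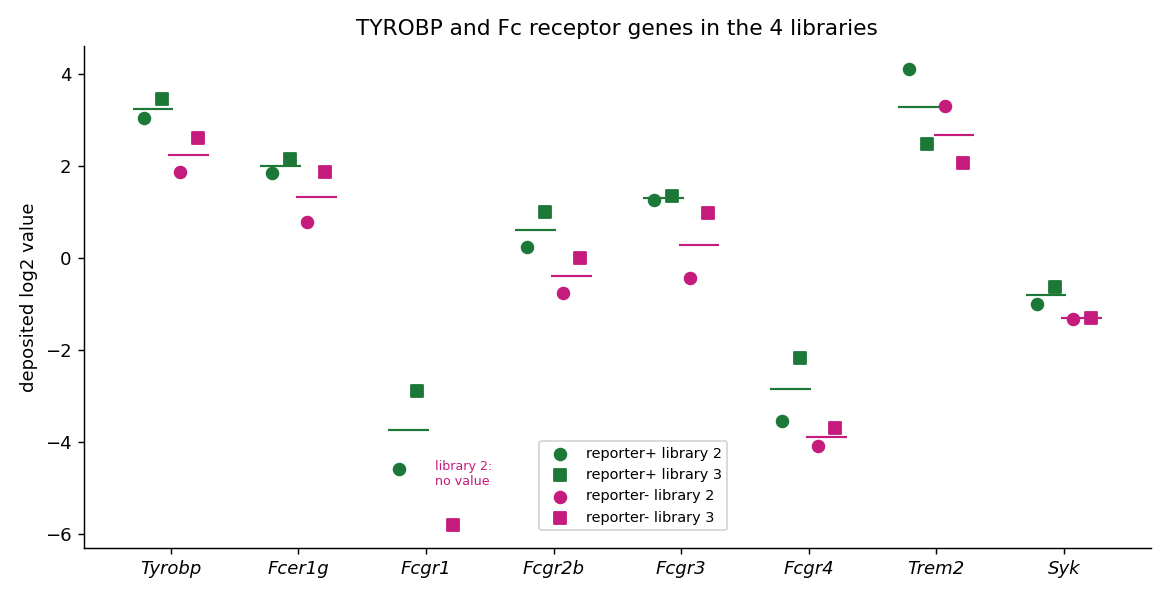
Deposited log2 value (vertical axis) of the 8 genes in each library, with green for PDGFRα reporter+, magenta for PDGFRα reporter-, circles for libraries numbered 2, squares for libraries numbered 3 and a line at the mean of 2 libraries. Green symbols lie above magenta ones for Tyrobp, Fcgr2b, Fcgr3, Fcgr4 and Syk, those of Fcer1g and Trem2 overlap, and Fcgr1 has no value in reporter- library 2.

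The Fcγ receptors with a value in every library differed by close to the same amount on average, but not within each library number. *Fcgr2b*, the inhibitory receptor (chromosome 1, 170958617 to 170976547), had log2 values of 0.24 and 0.99 in reporter+ libraries 2 and 3, compared with −0.77 and 0.00376 in the reporter- libraries. Both reporter+ libraries lay above both reporter- libraries, and the difference was nearly equal within the numbers, 1.01 and 0.99 (mean 1.00, SE 0.45). The mean was 0.61 without reporter- library 2, 0.62 without reporter+ library 3 and 0.52 with a pseudocount of 1 on the linear scale. *Fcgr3*, the low-affinity activating receptor (chromosome 1, 171051174 to 171064935), had 1.26 and 1.34 in the reporter+ and −0.43 and 0.98 in the reporter- libraries. Its reporter+ values were close together, and reporter- library 2 stood well below the other libraries. The difference was therefore uneven, 1.69 within number 2 and 0.36 within number 3 (mean 1.02, SE 0.53). The mean was 0.32 without reporter- library 2, 1.73 without reporter- library 3 and 0.60 with the same pseudocount.

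*Fcgr4*, an activating receptor for some IgG subclasses (chromosome 1, 171018920 to 171029761), had log2 values of −3.55 and −2.17 in the reporter+ and −4.10 and −3.70 in the reporter- libraries. It was uneven in the other direction, with the larger difference within number 3 (1.53) and the smaller within number 2 (0.55), and the populations did not overlap. The mean difference was 1.04 (SE 0.70), with 0.35 without reporter+ library 3 and 1.73 without reporter+ library 2, and it was 0.11 when 1 was added on the linear scale before the logarithm. *Fcgr1*, the high-affinity IgG receptor (chromosome 3, 96282909 to 96293969), was blank in reporter- library 2 and had −4.60 and −2.90 in the reporter+ libraries and −5.81 in reporter- library 3. With the blank filled by the lowest value, its log2 difference over all libraries was 4.19, which rests on that fill. Within number 3, where both libraries had a value, *Fcgr1* was higher in reporter+ cells by 2.91 on the log2 scale.

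The values of *Fcgr2b* and *Fcgr3* may share reads. Their coding sequences were identical at 86.7% of 782 aligned bases, compared with 64.1% to 68.6% for the other pairs of these receptors. Of the 50-base windows of the *Fcgr3* transcripts in GENCODE M21, 10.2% also occurred in *Fcgr2b* transcripts, whereas the other pairs shared none. How the authors assigned such reads is not stated.

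*Trem2*, a TYROBP-coupled receptor for lipids and apolipoproteins on macrophages and osteoclast precursors (chromosome 17, 48346401 to 48354147), followed the library number more than the population. Its log2 values were 4.12 and 2.47 in reporter+ libraries 2 and 3 and 3.30 and 2.07 in reporter- libraries 2 and 3. Both libraries numbered 2 were above both numbered 3, so that the populations overlapped. Within the numbers it was higher in reporter+ cells by 0.82 and 0.40 (mean 0.61, SE 0.70). The mean difference turned negative when either reporter+ library 2 (−0.22) or reporter- library 3 (−0.00779) was left out, and was 1.43 without reporter+ library 3 and 1.22 without reporter- library 2. Leaving out 1 library leaves the numbers unbalanced.

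*Syk*, the tyrosine kinase docked by the phosphorylated motifs (chromosome 13, 52583173 to 52648792), had log2 values of −0.996 and −0.63 in the reporter+ libraries and of −1.32 in each reporter- library. The reporter- values differed by 0.00177 and both lay below the reporter+ values. The difference was 0.51 (SE 0.37), with 0.32 within number 2 and 0.69 within number 3, and it was 0.32 without reporter+ library 3 and 0.17 with a pseudocount of 1 on the linear scale.

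**Figure D2:**
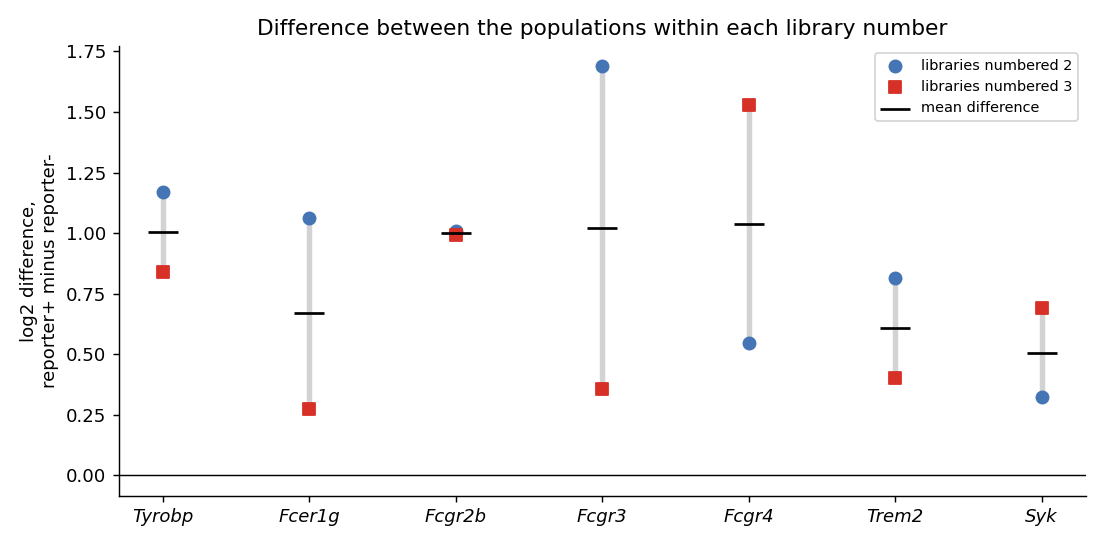
Log2 difference of PDGFRα reporter+ minus PDGFRα reporter- (vertical axis) for the 7 genes listed in all libraries, with circles for libraries numbered 2, squares for libraries numbered 3 and a black bar at the mean. All symbols lie above 0, the 2 symbols of Fcgr2b nearly coincide, and those of Fcgr3 and Fcgr4 lie far apart in opposite order.

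Of the 8 genes, 7 had a value in all libraries, and for 5 of these the mean over the libraries was 0 or more on the log2 scale. Both reporter+ libraries lay above both reporter- libraries for 5 of the 7 (*Tyrobp*, *Fcgr2b*, *Fcgr3*, *Fcgr4* and *Syk*), while 7.59% of the 14415 genes listed in all libraries did so. Within both numbers, 7 of the 7 were higher in reporter+ cells, compared with 22.1% of all genes. As the genes were chosen on this contrast, nothing is read from these counts. The median log2 difference of the 7 was 1.00, over a range from 0.51 to 1.04, beside a median of −0.00355 over all genes tested. It was 1.01 within number 2 and 0.69 within number 3, and for 5 of the 7 the difference was larger within number 2. When single libraries were dropped, the median was 0.61 without reporter- library 2, 0.62 without reporter+ library 3 and 1.24 without reporter- library 3, and with a pseudocount of 1 on the linear scale it was 0.52.

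The comparison of number 3 with number 2, made on the same log2 values as the choice of the genes, split them. *Trem2* was lower in number 3, by −1.65 in reporter+ and −1.23 in reporter- cells, which is more than its difference between the populations. The other 6 were higher in number 3 in both populations, compared with 41.1% of all genes. *Fcgr2b* differed between the numbers by 0.75 in reporter+ and 0.77 in reporter- cells, whereas *Fcgr3* differed by 0.08 in reporter+ and 1.41 in reporter- cells. *Fcgr4* had the reverse, with 1.38 in reporter+ and 0.39 in reporter- cells. With 1 library of each number per population, these differences have no replicate and were not tested.

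The promoters of the genes were examined for GAGGAA on either strand, the core of the site bound by PU.1, a transcription factor of myeloid cells and B cells. The windows ran from 250 bases before to 50 bases after each transcription start in the RefSeq set on GRCm38.p6, which held 9 windows for 7 of the genes and none for *Tyrobp*. The motif was found for *Fcgr1*, *Fcgr3*, *Fcgr4*, *Trem2* and 1 of the windows of *Syk*, and was not found in the windows of *Fcgr2b* and *Fcer1g*. Of all 32851 windows of this length, 28.3% held it. A match is only a run of letters and does not show binding. The upstream stretches of the IgG receptors and *Trem2* are shown because 4 receptors carry it on the opposite strand, as TTCCTC in capitals, close upstream of the start. For *Fcgr3*, 1 of its overlapping windows is shown. They lie at chr3:96293982-96294061 (minus strand, motif from base −55), chr1:171059395-171059446 (minus strand, from −15), chr1:171018867-171018925 (plus strand, from −22) and chr17:48346324-48346400 (plus strand, from −40).
Fcgr1: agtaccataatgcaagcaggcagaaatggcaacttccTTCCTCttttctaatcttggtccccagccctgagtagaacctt
Fcgr3: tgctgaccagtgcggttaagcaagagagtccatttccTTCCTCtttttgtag
Fcgr4: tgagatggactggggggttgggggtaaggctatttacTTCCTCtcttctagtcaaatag
Trem2: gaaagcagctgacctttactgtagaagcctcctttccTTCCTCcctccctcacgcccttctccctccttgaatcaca

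*Fcgr2b*, *Fcgr4*, *Fcgr3* and *Fcer1g* lie in 1 cluster on chromosome 1, from 170958617 to 171234365. GENCODE M21 places 13 other genes inside it, 7 of them protein coding, of which 6 had a value in all libraries. These neighbors had a median log2 difference of 0.07, and the lowest was −0.57 for *Apoa2*, an apolipoprotein gene. *Sdhc*, a subunit of mitochondrial complex II, had log2 values of 5.22 and 5.25 in the reporter+ and 5.17 and 5.50 in the reporter- libraries, a difference of −0.10. The antisense gene *Gm38204* overlaps *Fcgr2b* in GENCODE M21 and is not a symbol of the table.

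The other genes of the pathway were taken as 7 lists by role, with 114 genes, of which 84 had a value in every library and 12 had none. Of the 84, 32 had a mean over the libraries of 0 or more on the log2 scale, compared with 10224 of the 14415 genes. The 84 were thus often lower in level than the genes they are set against. All 84 were tested with limma in the model over all genes. None of the 84 had an adjusted p under 0.05, as for 0% of the 14415 genes, and the smallest adjusted p was 1. An unadjusted p under 0.05 was found for 2 of them, both higher in reporter+ cells, beside 0.909% of all genes. With the library number as a block, 1 of the 84 (*Clec4n*) had an adjusted p under 0.05 in limma, beside 29 of all 14415 genes. Both reporter+ libraries lay above both reporter- libraries for 21 of the 84 (25%) and below for 1, compared with 7.59% and 8.1% of all genes. Within both numbers, 47 were higher and 6 lower, compared with 22.1% and 24.8% of all genes.

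Receptors that pair with TYROBP or the γ chain, together with their TREM-like relatives, made up a list of 24 genes, of which 12 had a value in every library, with a median log2 difference of 1.25. For 9 of the 12 the difference was positive within both numbers, compared with 22.1% of all genes. For 5 both reporter+ libraries lay above both reporter- libraries, compared with 7.59% of all genes. *Clec4n* (Dectin-2), a γ-chain-coupled lectin for fungal mannans, had an unadjusted p under 0.05. Its log2 values were 3.08 and 3.59 in the reporter+ and 1.70 and 2.35 in the reporter- libraries, a difference of 1.31 (SE 0.32, adjusted p = 1 in limma). With the library number as a block its adjusted p was 0.0121 in limma, though no label shows that the number pairs the libraries. *Treml4* and *Clec5a*, the latter a lectin coupled to TYROBP, had differences of 1.75 and 1.54 without overlap of the populations. Both were low, with log2 values from −6.52 to −4.62 for *Treml4* and from −4.51 to −2.10 for *Clec5a*. *Treml1*, which carries its own inhibitory motif, had a difference of 1.47 with overlap. *Trem1*, which amplifies inflammatory signals in neutrophils and monocytes, had −1.08, made up of −2.40 within number 2 and 0.23 within number 3. Its log2 values ran from −7.39 to −3.79.

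Inhibitory receptors and phosphatases had a median log2 difference of 0.83 over the 22 of 23 genes with a value in every library. Of these, 15 were higher within both numbers and 2 lower, compared with 22.1% and 24.8% of all genes. *Clec4a2* (DCIR), an inhibitory lectin with close paralogs, had −2.46 and −1.67 in the reporter+ and −4.56 and −4.29 in the reporter- libraries. Its difference of 2.36 (SE 0.57, adjusted p = 1 in limma) had an unadjusted p under 0.05. *Cd300lf* and *Clec12a*, both inhibitory receptors of myeloid cells, had differences of 1.84 and 1.64 without overlap. The log2 values of *Cd300lf* ran from −6.81 to −3.64 and those of *Clec12a* from −2.88 to −0.21. *Dok1*, an adaptor that dampens signals of tyrosine kinases, was the 1 gene of the lists with both reporter+ libraries below both reporter- libraries, with a difference of −0.36. *Siglecg*, a sialic acid receptor best known from B cells, had −0.37 with overlap.

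Among the effectors of SYK, the median was 0.48 over 28 of 30 genes. Of these, 18 were higher within both numbers and 1 lower, compared with 22.1% and 24.8% of all genes. *Was*, a regulator of actin in blood cells, had a difference of 1.499 that was mostly within number 2 (2.65, compared with 0.35 within number 3). *Card9*, which links SYK-coupled receptors to NF-κB, had 1.08 without overlap, and *Lcp2* (SLP-76), a scaffold for phospholipase Cγ, had 0.95 with overlap. The lowest were *Vav2*, a guanine nucleotide exchange factor, with −0.11 and *Prkcd*, protein kinase Cδ, with −0.10.

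Of the Src family kinases and their regulators, 11 of 13 were listed in every library, with a median of 0.14. The kinases *Lyn*, *Fyn*, *Src* and *Yes1*, chosen after their values were seen, had differences of 0.06, 0.01, −0.02 and 0.14. *Sla* and *Pag1*, both negative regulators or scaffolds of these kinases, had 0.59 and 0.36 with opposite signs within the numbers. *Ptpn22* and *Csk*, which restrain Src family kinases, had −0.25 and −0.10.

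**Figure D3:**
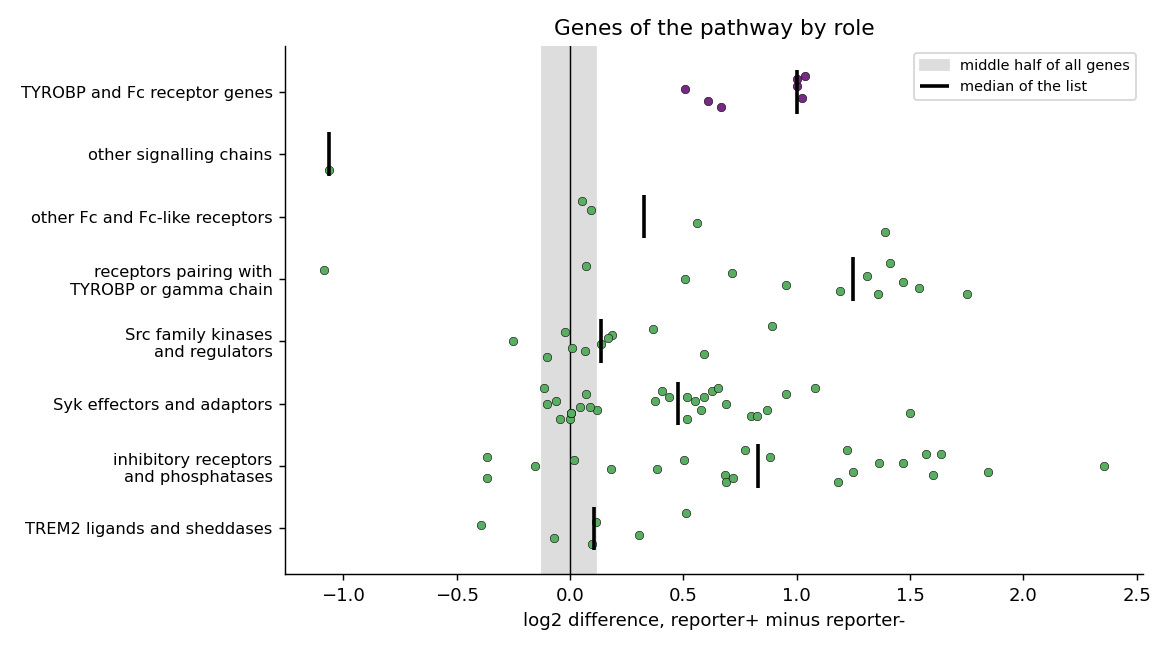
Log2 difference of PDGFRα reporter+ minus PDGFRα reporter- (horizontal axis) for each gene with a value in all libraries, by role (rows), with a bar at the median of the row and the range between the quartiles of all 14415 genes in gray. The medians of the pairing receptors (1.25) and of the inhibitory receptors (0.83) lie right of the gray band, while that of the Src family list (0.14) lies just right of it and that of the TREM2 ligands (0.11) inside it. Purple points are the genes described above and green points the other lists.

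The remaining lists held few listed genes or small differences. Of 11 other Fc and Fc-like receptors, 4 had a value in every library. *Fcgrt*, the neonatal Fc receptor that recycles IgG, had log2 values of 6.58 and 6.44 in the reporter+ and 6.28 and 6.55 in the reporter- libraries, a difference of 0.09 with overlap. *Fcamr*, a receptor for IgA and IgM, had 1.39 without overlap, at log2 values from −6.45 to −4.03, and *Fcrls* had 0.56 with opposite signs within the numbers. Of 7 other chains with activation motifs or their partners, only *Cd247*, the T cell receptor ζ chain, was listed in every library. It had a difference of −1.06 with overlap, at log2 values from −8.14 to −5.50. The mast cell chains *Ms4a2* and *Fcer1a* and the B cell chain *Cd79b* had no value in any library.

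The 6 genes of TREM2 ligands and sheddases had a median of 0.11. *Apoe*, an apolipoprotein bound by TREM2, had log2 values of 3.07 and 6.17 in reporter+ libraries 2 and 3 and 1.89 and 6.75 in reporter- libraries 2 and 3. *Apoe* was thus higher in number 3 in both populations, opposite to *Trem2*, and its difference between the populations of 0.30 had opposite signs within the numbers. *Clu*, another apolipoprotein, had a difference of 0.51 without overlap, and the sheddase gene *Adam17* had 0.11 with overlap. *Il34*, a ligand of the CSF1 receptor, had −0.39 with opposite signs within the numbers.

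Markers of macrophages were measurable in all libraries although the cells were sorted as CD45 negative, and moved with the same contrast. *Ptprc*, the gene of CD45, had log2 values of −1.28 and −0.39 in the reporter+ and −2.30 and −1.22 in the reporter- libraries. Of 25 macrophage markers, 23 had a value in every library, 20 of these were higher in reporter+ cells within both numbers, 0 were lower within both, and for 10 both reporter+ libraries lay above both reporter- libraries, beside 22.1%, 24.8% and 7.59% of all genes. Their median log2 difference was 0.99, with 1.24 within number 2 and 0.73 within number 3. It was 0.39 without reporter- library 2, 0.57 without reporter+ library 3, 1.63 without reporter- library 3 and 0.54 with a pseudocount of 1 on the linear scale. The named markers *Adgre1* (1.13), *Csf1r* (0.83), *Cd68* (0.86), *Lyz2* (1.00), *Spi1* (1.18) and *Cd14* (0.51) were all higher on average, *Cd14* with opposite signs within the numbers. Summed on the linear scale, the 25 markers came to 260 and 307 in the reporter+ and 102 and 196 in the reporter- libraries. Without *Lyz2*, which made up most of the sum, they came to 59.0 and 71.9, compared with 24.8 and 43.5. *Cd163* and *Ccr2* had a value in 1 library each. No marker of the list had an adjusted p under 0.05 in limma, and 5 had an unadjusted p under 0.05, beside 0.909% of all genes. The part of macrophage RNA in the differences of the pathway genes was not tested, and in bulk samples a smaller number of such cells and less RNA per cell cannot be told apart.

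Markers of the other cell types that use the pathway were sparse, except for osteoclasts. Of 12 markers of NK and T cells, 9 had no value in any library and none had a value in all, and none of 7 B cell markers had a value in all. Of 10 neutrophil markers, 1 had a value in every library (*Camp*), and *S100a9* had none. *Camp*, an antimicrobial peptide gene, had log2 values of −1.68 and 0.51 in the reporter+ and −1.85 and −0.87 in the reporter- libraries. *S100a8*, a calcium-binding protein gene of neutrophils, had −4.21 and 1.39 in the reporter+ libraries, no value in reporter- library 2 and −1.14 in reporter- library 3. The linear sum of this list was 0.367 and 4.12 in the reporter+ and 0.331 and 1.04 in the reporter- libraries, with the highest sum in reporter+ library 3, and its part in the differences of the pathway genes was not tested. Of 8 markers of mast cells and basophils, 3 had a value in every library, and *Mcpt4* and *Tpsb2* had no value in any. The basophil protease gene *Mcpt8* had log2 values of −1.86 and 3.93 in reporter+ libraries 2 and 3 and −0.15 and 2.20 in reporter- libraries 2 and 3. In reporter+ library 3 it was the highest of the list, with *Gata2* next at 1.72. The linear sum of this list was 2.60 and 18.7 in the reporter+ and 3.39 and 9.50 in the reporter- libraries, higher in number 3 in both populations, as were 6 of the 7 pathway genes, and its part in their values was not tested. Of 7 osteoclast markers, 6 were listed in every library, with a median difference of 0.86 that lay mostly within number 3 (2.07, compared with 0.11 within number 2). Their sum on the linear scale was 5.11 and 6.90 in the reporter+ and 5.33 and 3.15 in the reporter- libraries. Unlike the macrophage markers, the 6 endothelial markers had a median difference of −2.50, and for 4 of them both reporter+ libraries lay below both reporter- libraries, beside 8.1% of all genes. The 1 of 4 erythroid markers listed in every library, *Klf1*, had a difference of −2.11. None of these had an adjusted p under 0.05 in limma, and 5 had an unadjusted p under 0.05, beside 0.909% of all genes. For the stromal cells that the sort was meant to yield, the 10 markers had a median difference of −0.06, but single markers differed in both directions. *Lum* and *Dcn*, small proteoglycans of the matrix, had differences of 1.83 and 1.39 without overlap (unadjusted p under 0.05, adjusted p = 1 in limma), and *Postn*, a matrix protein, had −1.14 with overlap. *Pdgfra* itself had log2 values of 7.78 and 7.62 in the reporter+ and 7.87 and 7.44 in the reporter- libraries.

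**Figure D4:**
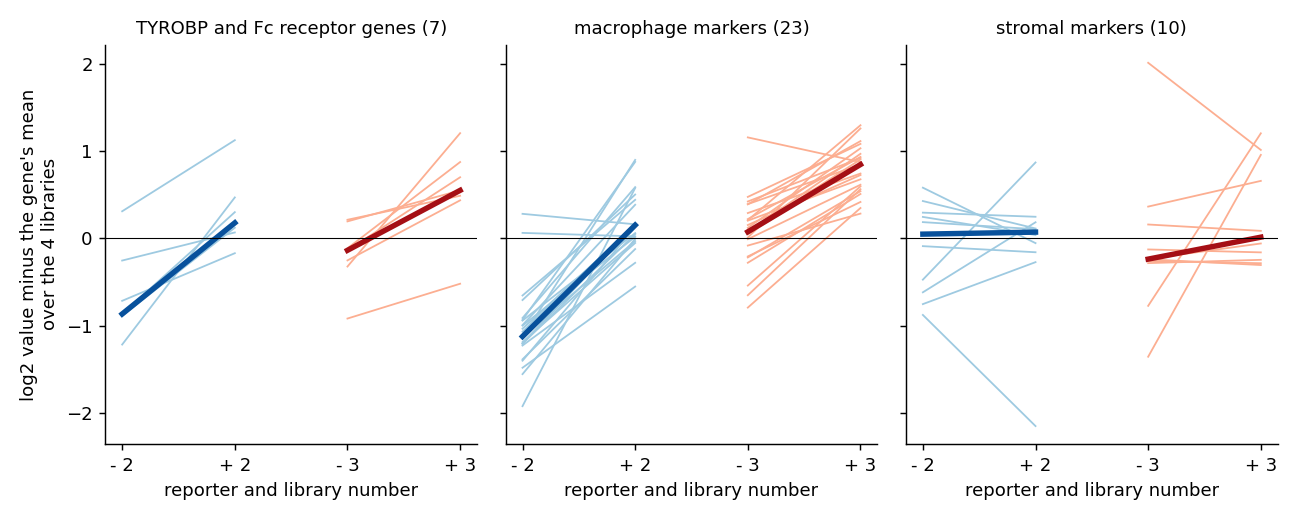
Log2 value of each gene minus its own mean over the libraries (vertical axis) by reporter and library number (horizontal axis), with thin lines for genes and thick lines for the median of the list, joined within a library number (blue for 2, red for 3). The medians of the pathway genes and of the macrophage markers rise from reporter- to reporter+ within both numbers, whereas the lines of the stromal markers run in both directions.

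The genes most like the 7 in pattern were sought among the 10219 other genes whose mean on the log2 scale was 0 or more. Likeness was the root mean square distance between the centered log2 values over the 4 libraries, whose median over these genes was 0.481. The closest were *Cd68*, a lysosomal glycoprotein of macrophages, at 0.0927, *Matn4*, a matrix protein, at 0.128, *Wnt16*, a Wnt ligand, at 0.128, *Comp*, a cartilage and tendon matrix protein, at 0.135, and *Ednrb*, the endothelin receptor B, at 0.139. Of the pathway genes, *Tyrobp* lay closest to their common pattern at 0.142 and *Trem2* farthest at 0.900. The list of closest genes thus held a macrophage gene next to matrix and signaling genes.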

How the data were processed

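The authors deposited log2 values that had been quantile normalized. Each of the 4 libraries had the same lowest (−10.07), median (1.48) and highest (11.73) value after rounding. Per the labels and methods, stranded paired-end libraries were sequenced on an Illumina instrument. The submitters' processing notes name bcl2fastq 2.17.1.14, Partek 7.0 and GRCm38.p6. The aligner, counting, annotation and filters are not given in the sources used here. Columns were assigned to a population by heading. No label says whether libraries of a population came from separate cultures, so that p-values measure only the spread between these libraries.

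The log2 difference was the mean of the reporter+ minus the mean of the reporter- libraries. Testing used limma 3.58.1 under R 4.3.3 (eBayes with a trend, two-sided, no block) on the 14415 genes without a blank, with Benjamini-Hochberg adjustment and a threshold of 0.05. For 1 gene an exact two-sided permutation test cannot give less than 0.333 and was not used. Positions and transcripts were from GENCODE M21, which held all 8 symbols, and promoters from RefSeq. Identity was computed with Biopython 1.88 and summaries with Python 3.11.15, pandas 2.3.3 and numpy 2.4.6. The genes and lists were chosen with earlier results of these data known. Beside the 8 genes, the text names, per list, up to 3 genes with the most positive and up to 2 with the most negative difference, 7 macrophage markers, *Pdgfra* and the 5 genes nearest in pattern. *Clec4n*, *Lyn*, *Fyn*, *Src*, *Yes1*, *Cd163*, *Ccr2*, *Mcpt8*, *Gata2*, *Camp*, *S100a8*, *Klf1*, *Lum*, *Dcn*, *Postn*, the cluster neighbors and genes named as blank were added after their values were seen. Some genes that this rule names are not reported here.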

Additional observations from a re-analysis of the deposited data

How the results depend on the processing

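Depth is unknown, and blanks and low values rest on an unknown number of reads. Such values were those of *Fcgr1* and *Fcgr4* and, among the list genes, of *Treml4*, *Trem1*, *Cd300lf*, *Cd247*, *Fcamr* and others. Centering each library on its median and filling blanks with the lowest value moved neither the median difference of the genes nor the count without overlap beyond the limits used (the spread between the library numbers, and 1.5 times). With a pseudocount of 1 on the linear scale the median difference was 0.52 for the 7 genes and 0.54 for the macrophage markers, 0.11 for *Fcgr4* and 0.17 for *Syk*, since a pseudocount shrinks low values. The medians of the pathway lists were not computed with a pseudocount. With genes of a mean of at least 0 alone, 3 genes had populations without overlap, as *Fcgr4* and *Syk* were no longer included. Leaving out 1 library in turn gave medians from 0.61 to 1.24 for the 7 genes. Macrophage marker medians were 0.39 without reporter- library 2, 0.57 without reporter+ library 3 and 1.63 without reporter- library 3. The count of genes without overlap was 6 each time, but it can only stay or rise when a library is dropped, so nothing is read from it. *Trem2* ranged from −0.22 to 1.43, with −0.22 without reporter+ library 2 and −0.00779 without reporter- library 3. Leaving out 1 library leaves the numbers unbalanced, and *Trem2* was lower in number 3 in both populations. Within numbers 2 and 3 its differences were 0.82 and 0.40. The difference of *Trem2* between the numbers was not tested.

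The headings' number could not be shown to pair the libraries by the labels. Across genes, deviations from the population means correlated at 0.681 for equal numbers. With the number as a replicate block, 29 of all genes had an adjusted p under 0.05 in limma, of which 1 was in the pathway lists (*Clec4n*, log2 difference 1.31, adjusted p = 0.0121), and 26 of the 84 had an unadjusted p under 0.05, 25 of them higher. Under the other settings, 0 of all genes had an adjusted p under 0.05, beside 121 to 273 with an unadjusted p under 0.05, except for 62 with the filter on the mean.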
